A study of Mus musculus with 12 samples.

Results

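Oxidative phosphorylation (OXPHOS) genes encode the respiratory chain and ATP synthase of the mitochondrial inner membrane. They were selected by symbol, as genes whose names begin with Nduf, Uqcr, Atp5 or Cox4 to Cox8, together with *Sdha*, *Sdhb*, *Sdhc*, *Sdhd*, *Cyc1*, *Cycs* and the genes of the same complexes on mitochondrial DNA (mtDNA), with a mean normalized count of at least 10 over the 12 libraries. In the retinal pigment epithelium (RPE) data 125 symbols matched the names, 14 pseudogenes with a -ps name were left out, and 110 of the 28591 genes measured remained. Of these, 97 are nuclear and 13 lie on mtDNA. The only match below the limit was *Cox7b2*, with a mean of 1.38, and the nearest one above it was *Ndufa4l2*, with medians of 14.1 in WT and 25.1 in rd6. Among the nuclear genes, *Cox6c2*, *Ndufa11b*, *Ndufb4c* and *Ndufs6b* are annotated as pseudogenes and share sequence with the gene they were copied from, so their counts are uncertain.

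RNA sequencing covered the RPE of 6 WT mice and 6 rd6 mice (Mfrp rd6/rd6), all at 1 mo of age. The mice named in the methods for these genotypes are C57BL/6J and the Mfrp rd6 strain, which carries a natural mutation of *Mfrp* in all its tissues, and both sexes were used. Each library came from the RPE of both eyes of a sample, taken from eyecups from which the anterior segment and the neural retina had been removed, so that cells attached to the eyecup could be carried over. The libraries were made from total RNA and held between 29218135 and 33152725 reads on genes in WT and between 28907262 and 32336530 in rd6.

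Complexes I and II take electrons from NADH and succinate, complex III passes them to cytochrome c, and complex IV (cytochrome c oxidase) gives them to oxygen, while complex V makes ATP from the proton gradient. The core subunits of complexes I, III, IV and V come partly from mtDNA, and the remaining subunits are imported products of nuclear genes. Several small subunits of complex IV exist as isoforms from separate genes, a widespread form and a form typical of heart and skeletal muscle (*Cox6a2*, *Cox7a1*, *Cox8b*), and the RPE is known as a tissue that relies on mitochondrial metabolism.

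*Mfrp*, the gene mutated in rd6, was at 40022 ± 5488 normalized counts in WT libraries and fell to 25881 ± 3091 in those of rd6 (SD, n = 6 each; limma q = 0.0013), and the libraries of the genotypes did not overlap. *Nnt*, an inner membrane enzyme partly deleted in C57BL/6J mice, was at 4.43 to 9.29 counts in WT and 2.06 to 14.9 in rd6. Markers of the RPE were all above the limit, 16 of 16, although *Best1* was low with means of 19.2 in WT and 29.2 in rd6, and 5 of the 16 were lower in rd6. Other cells were present too. Markers of striated muscle were called higher in 14 of 21 cases (median log2 fold change 0.97), and those of microglia and macrophages in 14 of 16. Those of endothelium were higher in 10 of 12, while 7 of 18 rod markers were called lower. Of the 9 cone markers tested 3 were higher and 2 lower, and of 6 melanocyte markers 2 were higher and 2 lower. Of 8 fibroblast markers 1 was lower. The shares over all genes tested were 11.4% higher and 11.6% lower. The part of microglial and endothelial RNA in the values below was not tested.

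Nuclear OXPHOS genes made up all the calls between rd6 and WT RPE, mostly of small changes, and no mtDNA gene was called. Of the 110 genes, 34 were called higher and 1 lower, and 75 were not called (limma with Benjamini-Hochberg adjustment over 17768 genes, q below 0.05). Over all genes tested, 11.4% were called higher and 11.6% lower, together 23.0%. The log2 fold change was above 0 for 101 of the 110, with a median of 0.17, beside a median of 0.0049 over all genes tested. For the 97 nuclear genes the median was 0.19, a change of 13.7%, and all 34 of the higher calls and the lower one fell in them. Genes outside the set with means in the same range of expression had a median of −0.016, and 10.8% of them were called higher. The study also set a fold limit, 0.81 on the log2 scale, and the 30 higher genes under it changed by between 9.56% and 28.7%.

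The number of these small changes that passed the test differed when single libraries were left out and when marker levels of other cells were used as a covariate. Leaving out WT 1, WT 2, WT 3 or WT 4 left 15, 16, 19 and 21 higher calls, and leaving out rd6 4, rd6 5 or rd6 6 left 21, 22 and 16, while without WT 5 there were 56. Striated muscle is rich in mitochondria, and its 21 markers summed to between 25892 and 87682 counts in the WT libraries, the least in WT 1, and to between 82353 and 117757 in rd6, with none at 0. Their mean log2 level was 8.73 to 10.4 in WT and 10.6 to 11.03 in rd6, so that it separated the genotypes completely, and an effect of genotype and one that goes with the muscle level cannot be told apart where it is fitted. With this mean level as a covariate, an alternative chosen after seeing the data, 1 member was called higher, *Cox8b*, and 74 of the 110 changes were above 0 with a median of 0.066, of which 73 were also above 0 without the covariate. Over all genes that fit called 658 higher and 453 lower, against 2024 and 2062 without the covariate, and the median standard error of the nuclear members rose from 0.078 to 0.11. With the rod markers as a covariate there were 14 higher calls and a median of 0.15. In bulk RNA, fewer cells of a type and less RNA per cell cannot be told apart.

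**Figure D1:**
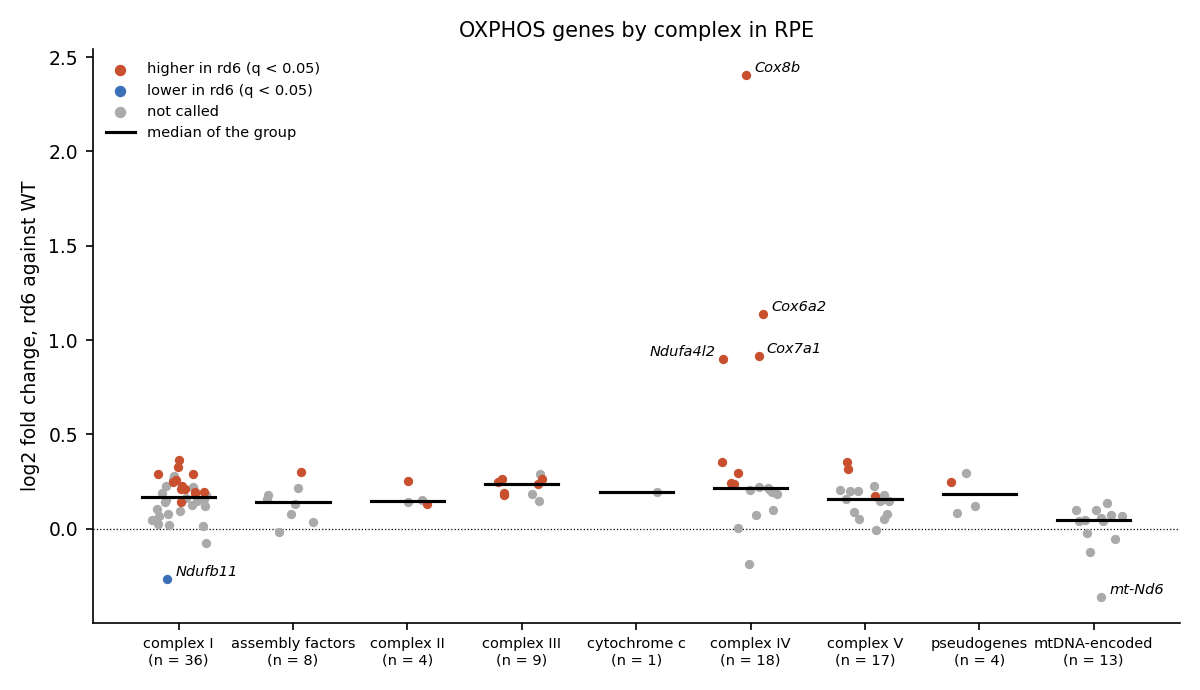
Each point is the log2 fold change of an OXPHOS gene, rd6 against WT (6 libraries each), grouped by complex and by genome, and the bars are group medians. *Cox8b* stands at 2.40, the other 3 genes past the fold limit also belong to complex IV, and the 13 mtDNA genes lie around 0 with none called.

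*Cox8b*, the muscle-type form of one of the smallest subunits of complex IV, changed most. The WT libraries ranged from 3158 to 4543 normalized counts with a median of 3830, and the rd6 libraries from 17204 to 23274 with a median of 19697. Every rd6 library was thus far above every WT library. The log2 fold change was 2.40 with a standard error of 0.096 (5.29-fold, limma q = 7.43e-09), and it was 2.47 with the muscle covariate and 2.28 with the rod covariate. Leaving out single libraries gave between 2.35 and 2.46.

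*Cox8a*, the widespread form of the same subunit, was not called. Its WT libraries ranged from 11908 to 17044 counts with a median of 13342, and its rd6 libraries from 13408 to 17069 with a median of 14704, so that the genotypes overlapped, with WT 1, WT 2 and WT 4 below every rd6 library. The log2 fold change was 0.10 (limma q = 0.48). Expressed per kb of exon, *Cox8a* had the highest level of the 93 nuclear genes that are not pseudogenes in WT, at 22601 counts per kb, followed by *Cox8b* at 10483. In rd6 the order was turned, with *Cox8b* first at 55225 counts per kb and *Cox8a* second at 24078.

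The share of *Cox8b* in the summed level per kb of the pair was 31.7% ± 2.20 in WT and 69.6% ± 0.817 in rd6 (SD, n = 6 each). Its range was 29.2% to 35.3% in WT, highest in WT 1, and 68.6% to 70.5% in rd6. The sum of both genes per kb was 33084 ± 4583 in WT and 79302 ± 7623 in rd6, a ratio of 2.40. The summed levels of the other families were well below that of *Cox8a* and *Cox8b* in rd6, at 8250 counts per kb for *Cox4i1* and *Cox4i2*, 9461 for the *Cox6a* genes and 6842 for the *Cox7a* genes.

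**Figure D2:**
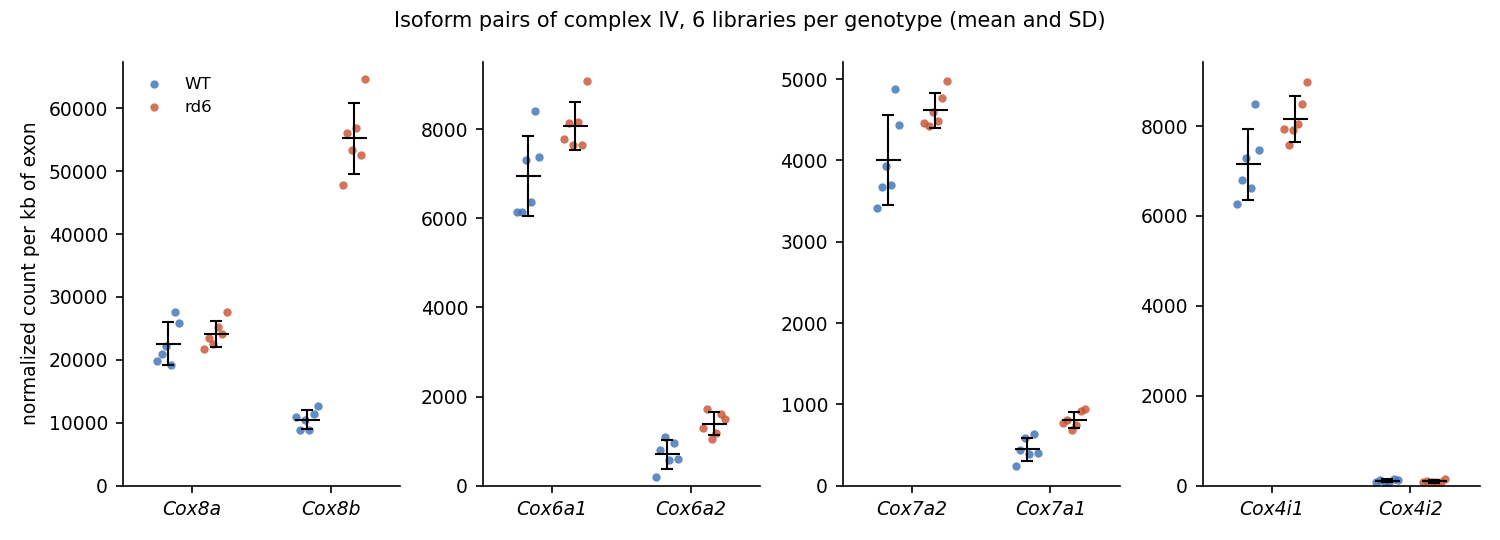
Normalized counts per kb of exon of the widespread form (left in each panel) and the second form (right) of 4 subunits of complex IV, with 6 libraries per genotype as points and the mean and SD in black; each panel has its own linear axis from 0. *Cox8b* moves from below *Cox8a* in WT to above it in rd6, while the second forms of the other subunits stay well below the first.

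Promoter windows from RefSeq (GRCm38.p6, 250 bases before to 50 after the annotated start) were found for 76 of the 110 genes, all nuclear. They are shown for *Cox6a1* as an example that holds both the NRF1 and the ETS core and for *Cox8a* and *Cox8b* because their levels diverged. Capitals mark the matches to the motifs searched on both strands, and in *Cox6a1* the NRF1 core matches on both strands with an overlap. *Cox6a1* lies on the minus strand at chr5:115348909-115349208, *Cox8a* on the minus strand at chr19:7217567-7217866 and *Cox8b* on the minus strand at chr7:140900397-140900696.
Cox6a1: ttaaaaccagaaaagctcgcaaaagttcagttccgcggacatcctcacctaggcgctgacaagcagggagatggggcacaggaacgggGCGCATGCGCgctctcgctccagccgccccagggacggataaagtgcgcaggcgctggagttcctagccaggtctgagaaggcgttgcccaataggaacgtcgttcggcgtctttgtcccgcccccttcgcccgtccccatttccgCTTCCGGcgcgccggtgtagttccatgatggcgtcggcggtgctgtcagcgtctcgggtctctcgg
Cox8a: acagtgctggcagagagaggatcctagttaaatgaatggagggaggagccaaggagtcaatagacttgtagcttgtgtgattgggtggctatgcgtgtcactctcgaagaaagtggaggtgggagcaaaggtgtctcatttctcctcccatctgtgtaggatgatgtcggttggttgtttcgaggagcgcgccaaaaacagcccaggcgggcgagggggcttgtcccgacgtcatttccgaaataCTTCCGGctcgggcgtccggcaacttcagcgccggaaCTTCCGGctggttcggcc
Cox8b: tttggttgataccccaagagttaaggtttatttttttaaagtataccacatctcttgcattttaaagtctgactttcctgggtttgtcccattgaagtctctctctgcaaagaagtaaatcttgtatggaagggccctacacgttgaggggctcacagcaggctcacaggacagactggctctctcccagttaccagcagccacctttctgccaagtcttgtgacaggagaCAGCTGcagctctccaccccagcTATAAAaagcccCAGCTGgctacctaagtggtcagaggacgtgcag

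The core of the site of NRF1, a regulator of nuclear genes for mitochondrial proteins, was searched as GCGCATGCG and was found in 14.5% of the 76 windows and in 1.81% of all 27025 promoter windows. The core bound by ETS factors such as GABP (CCGGAAG) was in 23.7% of them and in 9.12% of all, that of YY1 (AAGATGG) in 14.5% and 6.48%, and the half-site of estrogen-related receptors (AAGGTCA) in 10.5% and 4.66%. *Cox6a1* holds the first 2 of these and *Cox8a* holds the ETS core at positions −5 and 33 from the start. *Cox8b* holds neither. Its window has TATAAA at position 5 of the annotated start and CAGCTG, an E-box of the kind bound by muscle regulators, at positions −19 and 17. TATAAA was in 9.21% of the 76 windows and in 14.2% of all, and CAGCTG in 7.89% and 16.1%. The core of the MEF2 site was in 2.63% and 3.70%, and not in these 3 windows. The *Cox8b* window has 2 CpG dinucleotides and 48.3% G and C, where *Cox8a* has 19 and 56.0%, and the medians were 20 and 58.8% over the 76 windows and 7 and 52.7% over all promoters. *Cox7a1* has 7 CpG in its window and its widespread counterpart *Cox7a2* has 20, and neither holds a motif of those searched. These matches describe the sequence only.

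The other muscle-type forms of complex IV subunits were also called higher, and both were lowest in WT 1, the library with the least muscle signal. *Cox6a2* ranged from 132 to 749 counts in WT with a median of 476, and from 713 to 1164 in rd6 with a median of 949. The gene overlaps *Itgad* on the opposite strand, which had 0 to 2.06 counts in every library. The groups overlapped at WT 3, the highest WT library, and WT 1 was the lowest by far. The log2 fold change was 1.14 with a standard error of 0.34 (limma q = 0.029). Over the 12 fits that left out a library it ran from 0.80 to 1.30, at its lowest just under the fold limit. Without WT 6, rd6 2, rd6 5 or rd6 6 it was 1.07 to 1.13 with q between 0.053 and 0.062.

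*Cox7a1*, a muscle-type form of a subunit that also has the forms *Cox7a2* and *Cox7a2l*, ranged from 127 to 338 counts in WT with a median of 224. Its rd6 libraries ranged from 367 to 502 with a median of 422. The groups did not overlap, and WT 1 was again the lowest. The log2 fold change was 0.92 with a standard error of 0.20 (limma q = 0.0053). In the fits that left out a library it ran from 0.75 to 1.03, at its lowest under the fold limit, with limma q of at most 0.013.

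With the muscle markers as a covariate, the log2 fold change of *Cox6a2* was −0.21 (q = 0.55) and that of *Cox7a1* was 0.20 (limma q = 0.58). Neither was called in that fit, where the covariate does not overlap between genotypes. For each 1000 counts of the 21 muscle markers, *Cox6a2* had 5.10 to 8.54 counts in WT and 8.07 to 9.90 in rd6, and *Cox7a1* had 3.41 to 4.91 in WT and 3.68 to 4.87 in rd6, with overlap for both. *Cox8b* had 42.8 to 151 in WT and 162 to 233 in rd6, without overlap, and its highest WT value was that of WT 1, the library with the least muscle signal. The muscle markers included *Ckm*, at 2254 to 9709 counts in WT and 8128 to 11501 in rd6. Of 8 brown fat markers, which were listed because *Cox8b* is also known from that tissue, *Ucp1* was at 0 to 0.971 counts in WT and 0 to 4.97 in rd6, and *Adipoq*, *Plin1* and *Adrb3* were at or below 11.1 in every library. *Plin1* had medians of 7.96 in WT and 1.99 in rd6. The 3 brown fat markers above the limit had log2 fold changes of −0.63 to 2.14, the highest that of *Cidea*, with 9.99 ± 8.68 counts in WT and 39.8 ± 19.7 in rd6 (SD, n = 6). *Cidea* passed the limit on mean count only through its rd6 libraries, so its difference is given without a test.

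**Figure D3:**
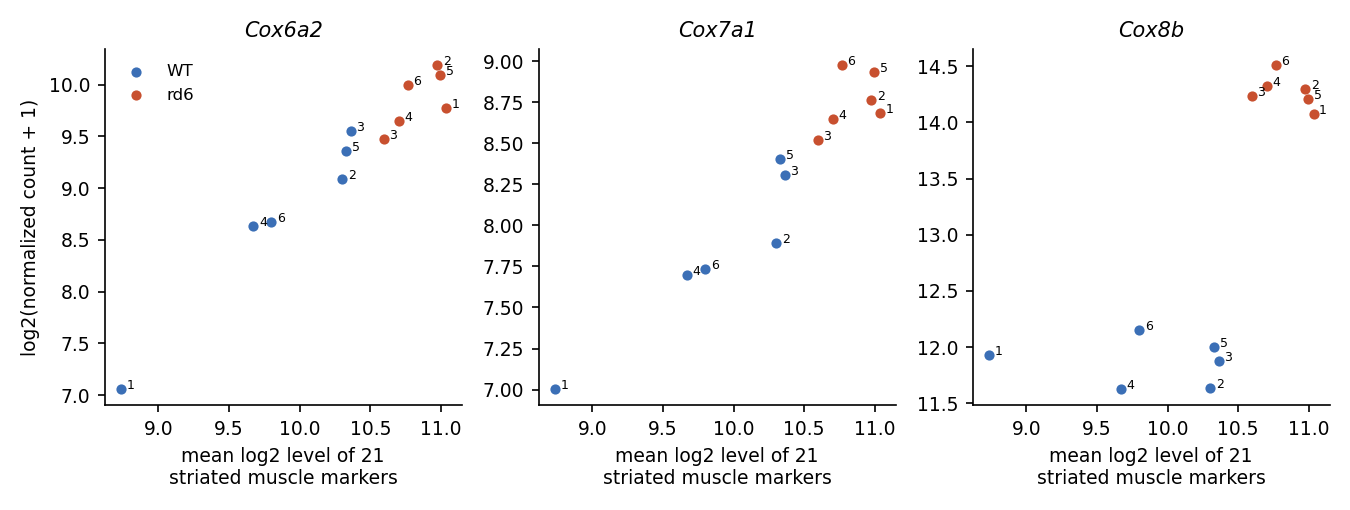
The log2(normalized count + 1) of each muscle-type isoform (vertical axis) against the mean log2 level of 21 striated muscle markers (horizontal axis) in the 6 WT and 6 rd6 libraries, with replicate numbers beside the points. *Cox6a2* and *Cox7a1* are lowest in WT 1, the library with the least muscle signal. Within rd6, neither is highest in rd6 1, the library with most muscle signal. The *Cox8b* points form 2 levels, one per genotype, and its WT points stay between 3158 and 4543 counts from WT 1 to the WT library with most muscle signal. The genotypes share no muscle level, so that effects of genotype and of muscle level cannot be told apart.

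As a share of its family per kb, *Cox6a2* took 8.99% ± 3.54 in WT and 14.6% ± 2.26 in rd6 (two-sided exact permutation test, p = 0.0065), and *Cox7a1* took 7.73% ± 1.89 and 11.8% ± 0.890 (p = 0.0022 by the same exact test, the smallest p that 6 against 6 allow). The 2 families' widespread forms, *Cox6a1* and *Cox7a2*, had log2 fold changes of 0.22 (limma q = 0.062) and 0.22 (q = 0.068). *Cox4i2*, the hypoxia-related form of subunit 4, took 1.48% ± 0.379 of its family in WT and 1.13% ± 0.227 in rd6 (exact permutation p = 0.080), with counts of 56.3 to 125 and 59.6 to 109. *Ndufa4l2*, a hypoxia-related relative of the complex IV subunit NDUFA4, took 0.202% ± 0.0789 and 0.352% ± 0.0568 of its pair (exact permutation p = 0.0043). With the *Cox8b* share, whose direction was known beforehand and whose exact p was also 0.0022, 5 shares were tested. The Benjamini-Hochberg adjusted values over the 5 were 0.0054 for *Cox8b* and *Cox7a1*, 0.0072 for *Ndufa4l2*, 0.0081 for *Cox6a2* and 0.080 for *Cox4i2*. Counting the *Cox8b* test among them made the adjusted values of *Cox7a1*, *Ndufa4l2* and *Cox6a2* smaller than they would be without it.

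*Ndufa4l2* was scarce, with 6.90 to 21.8 counts in WT and 21.01 to 30.9 in rd6. WT 3 was the 1 WT library inside the range of rd6. The gene overlaps *Shmt2* on the opposite strand, which had 368 to 556 counts in WT and 444 to 514 in rd6, so that the low counts of *Ndufa4l2* are uncertain where counting ignored strand. Its log2 fold change of 0.90 (limma q = 0.037) was past the fold limit, as were those of *Cox8b*, *Cox6a2* and *Cox7a1*. These make 4 of the 110 genes, all higher and all in complex IV. Over all genes, 4.69% passed this limit upward and 2.12% downward, so that the share in the set was not above that background. The call of *Ndufa4l2* was lost with the rod covariate, where the log2 fold change was 1.00 and its standard error 0.39 against 0.28 (limma q = 0.084), and with the muscle covariate (log2 fold change 0.36, q = 0.74). It was also lost with no filter and in 8 of the 12 fits that left out a library, at log2 fold changes of 0.74 to 0.94. *Ndufa4* itself had a log2 fold change of 0.072 (q = 0.51).

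The remaining subunits of complex IV had small changes, and only part of them were called. Of all 18 nuclear genes of the complex, the 4 past the fold limit included, 8 were called higher and none lower (median log2 fold change 0.22). The heme-carrying core subunits are made from mtDNA, and *Cox5a* and *Cox5b*, which sit beside them in the matrix part of the enzyme, each had rd6 libraries above every WT library. *Cox5a* ranged from 1790 to 2173 counts in WT and from 2239 to 2836 in rd6 (log2 fold change 0.30, q = 0.0052), and *Cox5b* from 800 to 1027 and from 1082 to 1318 (log2 fold change 0.35, q = 0.0061, limma for both). Of the *Cox6b* and *Cox7b* genes, *Cox7b* was called (0.24, limma q = 0.024, lost without WT 1, WT 2 or rd6 6 and, at 0.20 and q = 0.14, with the rod covariate), *Cox6b1* just missed the limit with a log2 fold change of 0.21, and *Cox6b2*, a form known from testis, had a log2 fold change of 0.0030 with 854 ± 96.7 counts in WT and 856 ± 102 in rd6 (SD, n = 6).

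Complex I accepts electrons from NADH and has the most genes. Of its 36 nuclear subunit genes, 13 were called higher and 1 lower, and the median log2 fold change was 0.17. *Ndufa1*, an accessory subunit in the membrane arm, had the largest rise that was called, with 2294 to 3150 counts in WT and 3207 to 3417 in rd6. The groups did not overlap, and the log2 fold change was 0.36 with a standard error of 0.074 (limma q = 0.0036). It was 0.25 with the muscle covariate (q = 0.25). *Ndufb11* was the only member called lower, with 7436 to 10419 counts in WT and 6885 to 8071 in rd6, which overlap. Its log2 fold change was −0.27 (limma q = 0.026). The call was lost without WT 3, WT 6, rd6 1 or rd6 3, with upper-quartile rescaling and with the replicate block. It was also lost with the muscle covariate, at −0.38 (limma q = 0.083). By gene span it overlaps *Rbm10* on the opposite strand, which was also called lower (−0.28, limma q = 0.022). Reads on bases that the pair shares cannot be told apart where counting ignored strand. *Ndufb11* was also the nuclear complex I gene with the highest level per kb, at 9771 in WT and 8078 in rd6. Of the 8 genes named as assembly factors (Ndufaf), which help build complex I and are not part of it, *Ndufaf5* was called higher (0.30, limma q = 0.032, lost in 8 of 12 fits without a library and, at 0.29 and q = 0.11, with the rod covariate) and *Ndufaf8* had the highest level per kb, with a log2 fold change of −0.020.

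Complex II, succinate dehydrogenase, is the one complex encoded by nuclear genes alone. *Sdha* and *Sdhb*, its catalytic subunits, were called, with log2 fold changes of 0.13 (limma q = 0.044) and 0.25 (q = 0.0057), and its membrane anchors *Sdhc* and *Sdhd* had 0.14 and 0.15 and were not. *Sdhb* ranged from 2690 to 3326 counts in WT and from 3265 to 3745 in rd6, with WT 5 the library that reached into the rd6 range. In complex III, 6 of 9 nuclear genes were called higher and none lower, and their median log2 fold change was 0.24. *Uqcrq*, a small subunit of complex III, had the largest called rise with 3080 to 4505 counts in WT and 4085 to 4757 in rd6 (0.27, limma q = 0.049), a call that was lost in 10 of the 12 fits that left out a library, with the rod and the muscle covariate, with no filter and in edgeR. *Uqcr10* had the highest level per kb of the 9 nuclear genes with 6061 in WT and 7377 in rd6. *Cycs*, which encodes the electron carrier cytochrome c, had 700 to 880 counts in WT and 852 to 985 in rd6 and was not called (0.19, q = 0.054).

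In complex V, 3 of 17 nuclear genes were called higher. These were *Atp5o*, a stalk subunit, *Atp5g3*, a gene of the ring subunit c, and *Atp5a1*, the alpha subunit of the catalytic head. *Atp5o* ranged from 2540 to 3401 counts in WT and from 3376 to 4306 in rd6 (log2 fold change 0.35, limma q = 0.0055), and a second annotation of the same name overlaps it. *Atp5a1* had the highest level per kb of the nuclear genes of the complex, with 7693 in WT and 8686 in rd6 (0.18, limma q = 0.039), and its call was lost in 9 of the 12 fits without a library, with the rod covariate (0.16, q = 0.14) and with no filter. The 3 genes of subunit c encode the same mature protein. *Atp5g3* was the most abundant of them, at 2911 counts per kb in WT and 3609 in rd6, and was called (0.31, q = 0.0066). *Atp5g1* had 313 and 358 counts per kb with a log2 fold change of 0.20 (q = 0.18), and *Atp5g2* had 128 and 142 with 0.15 (q = 0.34).

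None of the 13 mtDNA genes was called in the main comparison or in any alternative, and none had an unadjusted p below 0.05 in the main comparison. Their median log2 fold change was 0.045, from −0.36 for *mt-Nd6* to 0.14 for *mt-Nd3*. They took 7.58% to 9.07% of all counts in WT and 8.32% to 9.48% in rd6, far more than the nuclear genes without pseudogenes, which took 0.949% to 1.15% in WT and 1.21% to 1.32% in rd6. *mt-Co1*, which carries the site where oxygen is reduced, had the highest level per kb, with 451904 in WT and 465119 in rd6, and a log2 fold change of 0.045. *mt-Co2* and *mt-Co3* had 0.10 and 0.098, *mt-Cytb* of complex III had 0.070, and *mt-Atp6* and *mt-Atp8* of complex V had 0.068 and 0.042. Of the complex I genes, *mt-Nd1*, *mt-Nd2*, *mt-Nd4*, *mt-Nd4l* and *mt-Nd5* lay between −0.12 and 0.059. *mt-Nd6*, the only one of the 13 on the light strand, had 479 to 1350 counts in WT, where WT 1 stood apart, and 333 to 906 in rd6. It overlaps *mt-Nd5* on the opposite strand. The difference between the nuclear and the mtDNA group was not tested, and the errors of the mtDNA genes (median standard error 0.097) were wider than those of the nuclear genes.

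**Figure D4:**
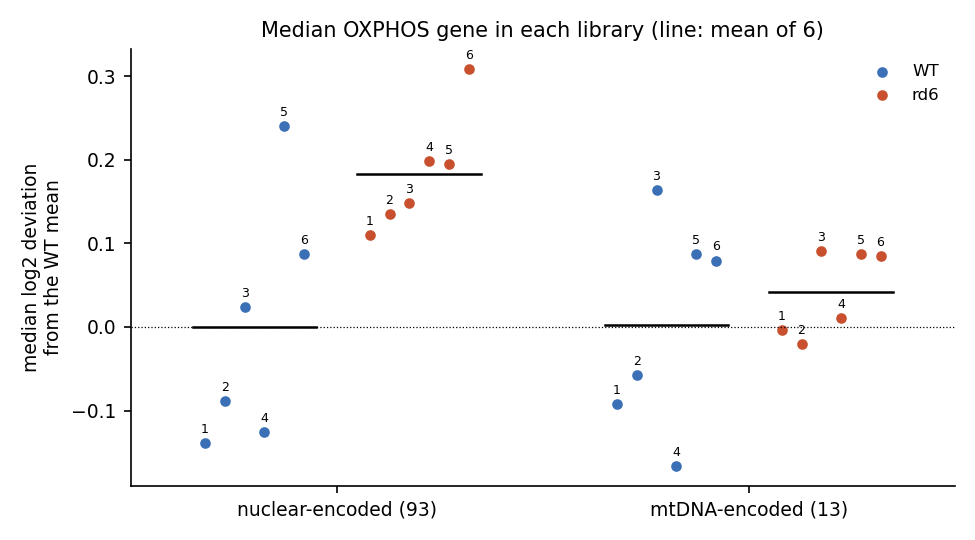
Each point is the median, over 93 nuclear genes (left) or 13 mtDNA genes (right), of the log2 deviation from the WT mean in a library, with replicate numbers above the points and a line at the mean of 6. The nuclear medians run from −0.14 to 0.24 in WT and from 0.11 to 0.31 in rd6 and overlap through WT 5, and the mtDNA medians of both genotypes lie in the same range.

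By library, the median nuclear gene deviated from the WT mean by −0.14 to 0.24 in WT and by 0.11 to 0.31 in rd6. WT 5 lay within the rd6 range and the other 5 WT libraries lay below it. Without the 3 muscle-type isoforms and the pseudogenes, the 90 remaining nuclear genes still had a median log2 fold change of 0.18, with 30 called higher and 1 lower. Of the 110 genes, 5 had every rd6 library above every WT library (*Cox8b*, *Cox7a1*, *Cox5a*, *Cox5b*, *Ndufa1*) and none the reverse, and over all genes tested 5.77% were separated upward and 5.67% downward, so that the share of 4.55% in the set was near that background.

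Genes that work beside the respiratory chain were counted by list, beside the 11.4% called higher and 11.6% called lower over all genes. Of 18 enzymes of the tricarboxylic acid cycle, which feeds it with electrons, 10 were called higher and none lower (median log2 fold change 0.19). *Suclg2*, a subunit of succinyl-CoA ligase, had the largest rise, from 1656 ± 160 to 2886 ± 340 counts (0.80, limma q = 2.89e-05). With the muscle covariate 3 of the 18 were called. Of 77 mitochondrial ribosomal proteins, 22 were higher and 2 lower (median 0.15), with *Mrpl52* at 0.35 (q = 0.011) and *Mrpl58* at −0.28 (q = 0.035). Factors that assemble the respiratory complexes had 3 higher and 3 lower of 43 and a median of 0.065. Among these, *Taco1*, needed for translation of *mt-Co1*, had 0.32 (q = 0.036), and *Cox17*, a copper chaperone of complex IV, had −0.26 (q = 0.034). Regulators of mitochondrial biogenesis had 4 higher and 3 lower of 28 and a median of −0.017. *Perm1*, known from muscle, had the largest rise (1.11, q = 0.026) and *Ppara*, a regulator of fatty acid oxidation, the largest fall (−0.66, q = 0.0057). Of 20 inner membrane carriers and uncoupling proteins 3 were higher and none lower, led by *Slc25a13*, an aspartate-glutamate carrier (0.35, q = 0.0058). With the muscle covariate no gene of the last 4 lists was called.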

How the data were processed

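Total RNA of RPE was made into stranded libraries, which the authors aligned to mm10 and counted on genes with Rsubread. The deposited signal is the number of reads on a gene after scaling by the DESeq2 size factor of its library, and its mean over libraries is given with it. Fold changes on the log2 scale, their standard errors, Wald scores and p-values of the authors' own comparison were deposited too and were not used. Each value is a whole multiple of 1 read (100% within 0.01 read), so reads could be recovered. The study names standard Rsubread parameters, which by default ignore strand, and no strand setting. If strand was ignored, reads on bases that genes of opposite strands share cannot be told apart. By gene span, introns included, 43 of the 97 nuclear members overlap another gene, 34 of them on the opposite strand and 13 on the same strand. Overlap of exons was not checked.

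The 28596 entries hold 28591 genes after 5 repeats were dropped. The main test was limma 3.58.1 (R 4.3.3, mean-variance trend) on log2(value + 1) over the 17768 genes whose mean reached 10, and genotype was the only term. Fold changes are on that scale and understate those of scarce genes. A member was called at q below 0.05, and the study's fold limit was counted beside it. Levels per kb use the exon union of GENCODE M21. Shares were compared with an exact permutation test. Precision is limited by the depth given above, which sets the counting error, and by 6 libraries per group. A p-value sets the difference between the genotypes against the spread between the libraries.

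Alternatives were pseudocounts of 0.1 and 10, other filters, TMM and upper-quartile rescaling, edgeR 4.0.16 (quasi-likelihood) and DESeq2 1.42.0 on recovered reads, a replicate block, marker covariates and leaving out each library. Tested on simulated data, the limma step found 94 of 100 genes changed 2-fold and 9 of 100 changed 1.2-fold. The simulation changed far fewer genes than were called in the data, all of them abundant. Its counts therefore do not give the share of such changes found here. Members and lists were chosen with earlier results of these data known. Genes were named by rule: members past the fold limit, the largest called rise and fall of each complex and list, isoform families, mtDNA genes and the highest level per kb of a complex. *Cox5a*, *Cox5b*, *Sdha*, *Cidea*, *Ckm* and *Best1*, as well as brown fat markers below the limit, were named after their values were seen.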

Additional observations from a re-analysis of the deposited data

Results flagged for a closer look

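In 5 of 102 groups of 6 libraries, 1 library stood apart by Dixon's test, and chance flags about 1 in 20. In rd6 these were rd6 6 for *Atp5g1* (2142 normalized counts, the others between 1573 and 1751), for *Cox4i2* (109, the others between 59.6 and 73.2) and for *Cox6a1* (6370, the others between 5363 and 5722). In WT they were WT 5 for *Ndufaf5* (368, the others between 253 and 283) and WT 1 for *mt-Nd6* (1350, the others between 479 and 661).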

How the results depend on the processing

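The count of higher members was 34 in the main comparison, 22 with no filter on the other genes, 53 with upper-quartile rescaling, 14 with the rod covariate and 1 with the muscle covariate, and between 15 and 56 without single libraries. Lower members numbered 0 with upper-quartile rescaling, with the replicate block and with the muscle covariate, and between 0 and 1 without single libraries, against 1 in the main comparison. Higher calls were 30 with edgeR and TMM, 31 with RLE, 49 with DESeq2 and 30 with the block. Of the 35 members called in the main comparison, 24 were also called with the block. The median log2 fold change stayed between 0.066 and 0.21 in every alternative. The fewer calls with no filter come with more genes tested, and other causes were not tested. *Mfrp* was −0.53 (q = 0.10) with the muscle covariate, and between −0.70 and −0.56 without single libraries.

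With the muscle covariate the log2 fold change turned for 29 of the 110 members, with the rod covariate for 7 and with upper-quartile rescaling for 3, none of them called there. Of the genes named by rule, those that turned with the muscle covariate were *Cox6a2* (−0.21), *Cox8a* (−0.027), *Cox6b2* (−0.026), *Ndufa4* (−0.015), *Atp5g2* (−0.046), *mt-Atp6* (−0.046), *mt-Co1* (−0.049), *mt-Co2* (−0.015), *mt-Co3* (−0.082), *mt-Cytb* (−0.024), *mt-Nd1* (−0.064), *mt-Nd3* (−0.026), *mt-Nd4* (−0.056) and *mt-Nd6* (0.33). With the rod covariate it was *Cox6b2* (−0.021), and they were *Ndufaf8* (0.019) and *mt-Nd2* (0.015) with upper-quartile rescaling. Without single libraries the log2 fold change ran from −0.056 to 0.054 for *Cox6b2*, from −0.062 to 0.029 for *Ndufaf8* and from −0.072 to 0.017 for *mt-Nd2*.

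Same-numbered WT and rd6 libraries do not pair (mean correlation of deviations −0.245, above 0.1 in 1 of 6 pairs, and 0 libraries correlated best with their own number). With the replicate block, the *Cox6a2* share kept its difference of 5.66 percentage points with an exact p of 0.0625, and the *Cox4i2* share its −0.357 with an exact p of 0.0313. Without single libraries the *Cox4i2* difference ran from −0.440 to −0.269 percentage points, with exact p between 0.0390 and 0.160. The shares of *Cox8b*, *Cox7a1* and *Ndufa4l2* kept direction and side of the threshold in the alternatives run for shares. These were the replicate block, leaving out single libraries, no division by length and a log2 ratio. The marker covariates were not applied to shares.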
